A study of Mus musculus with 8 samples.

Results

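The 10 genes described here encode the nuclear lamina, the LINC complex and their partners in the inner nuclear membrane: the lamin genes Lmna, Lmnb1 and Lmnb2, the SUN genes Sun1 and Sun2, the nesprin genes Syne1, Syne2 and Syne3, and Emd and Lbr. They were chosen by name and matched to the gene identifiers of the tables, and 10 of 10 were found among 57180 annotated genes. RNA was sequenced from muscle stem cells, the Pax7-expressing progenitors of skeletal muscle, which were sorted by flow cytometry from mouse muscle and used without culture. The control group held 4 libraries (replicates 2, 5, 7 and 8), labelled wild type (WT). The other group held 4 libraries (replicates 5, 6, 7 and 8) from SC-RhoAfl/+ mice, which carry a floxed RhoA allele beside an intact one. The titles call these animals RhoA het, and the genotype field calls the same libraries a RhoA knockdown. They are called RhoA het here. The Cre driver, the age of the mice and whether a replicate number stands for 1 animal are not given in the sources used here, so p-values measure the spread between these libraries, which may be technical.

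The lamina is a meshwork of intermediate filament proteins under the inner nuclear membrane. A-type lamins, made from Lmna, set much of the stiffness of the nucleus, and B-type lamins, made from Lmnb1 and Lmnb2, are anchored to the membrane by a lipid tail. SUN proteins span the inner membrane and bind the KASH domains of nesprins in the outer membrane, and the resulting LINC complex ties the lamina to the cytoskeleton. RhoA is a small GTPase that promotes actin assembly and myosin contraction, the forces that this bridge carries to the nucleus, so the comparison of RhoA het with control asks whether RNA levels of the bridge and the lamina differ when RhoA is reduced.

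Total counts lay between 19138763 and 25606342 fragments per library. The muscle stem cell list (11 genes, none at 0 in any library) summed to between 8082 and 12177 TPM in control and between 7837 and 13782 TPM in RhoA het, where TPM is a level corrected for gene length and for the size of the library. Values per library always follow the order of the replicate numbers above. The targeted gene, Rhoa, was at 132.0, 147.6, 121.3 and 136.0 TPM in control and at 117.2, 111.3, 112.5 and 125.0 TPM in RhoA het. Its fold change was 0.816, with an unadjusted p of 0.0495 and an adjusted p of 1 in edgeR. Some libraries stood apart. Both libraries numbered 5 had the highest sums of 16 cell cycle genes (519 TPM in control and 399 TPM in RhoA het, against 155 to 226 TPM in the other libraries) and of 8 fibro-adipogenic genes (4425 and 3715 TPM, against 918 to 1981 TPM). RhoA het replicate 6 had the highest sums of 10 endothelial genes (449 TPM, against 42.0 to 120.0 TPM elsewhere) and of 5 erythroid genes (1284 TPM, against 8.68 to 623 TPM). The myofibre list ran from 190 to 1091 TPM in control and from 154 to 880 TPM in RhoA het, the mural list from 497 to 1286 and from 641 to 2233 TPM, the immune list from 304 to 826 and from 226 to 808 TPM, and the Schwann list from 141 to 256 and from 147 to 318 TPM. Markers listed at 0 in at least 1 library were Bub1 and Plk1 (cell cycle), Adgre1 and Cd3e (immune) and Tnnc2 (myofibre). Y chromosome genes held at least 15137 fragments in 2 libraries, control replicate 2 and RhoA het replicate 6, and 677 or fewer in each of the others. Xist, which females express, held 5 and 7 fragments in the same 2 libraries and at least 3539 in the others, so they are called the male libraries here. In bulk RNA, fewer cells of a type and less RNA per cell cannot be told apart.

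None of the 10 genes differed between RhoA het and control past the threshold, an adjusted p under 0.05 in edgeR's quasi-likelihood test over 15660 genes. All 10 passed the filter on low counts, and 0 of 10 were called, beside 0% of all genes tested. At an unadjusted p under 0.05, the edgeR test gave 0 of 10 genes, beside 2.38% of all genes, and the DESeq2 Wald test gave 0 of 10, beside 2.2%. The groups overlapped for all 10 genes, and they did not overlap for 1.81% of all genes tested. The median log2 fold change was -0.017 over the 10 genes and -0.00071 over all genes tested. The 95% intervals still differed in width between the genes, from 0.780-fold to 1.11-fold for Lbr to 0.553-fold to 1.73-fold for Emd, so these libraries leave room for a larger change in some genes than in others.

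**Figure D1:**
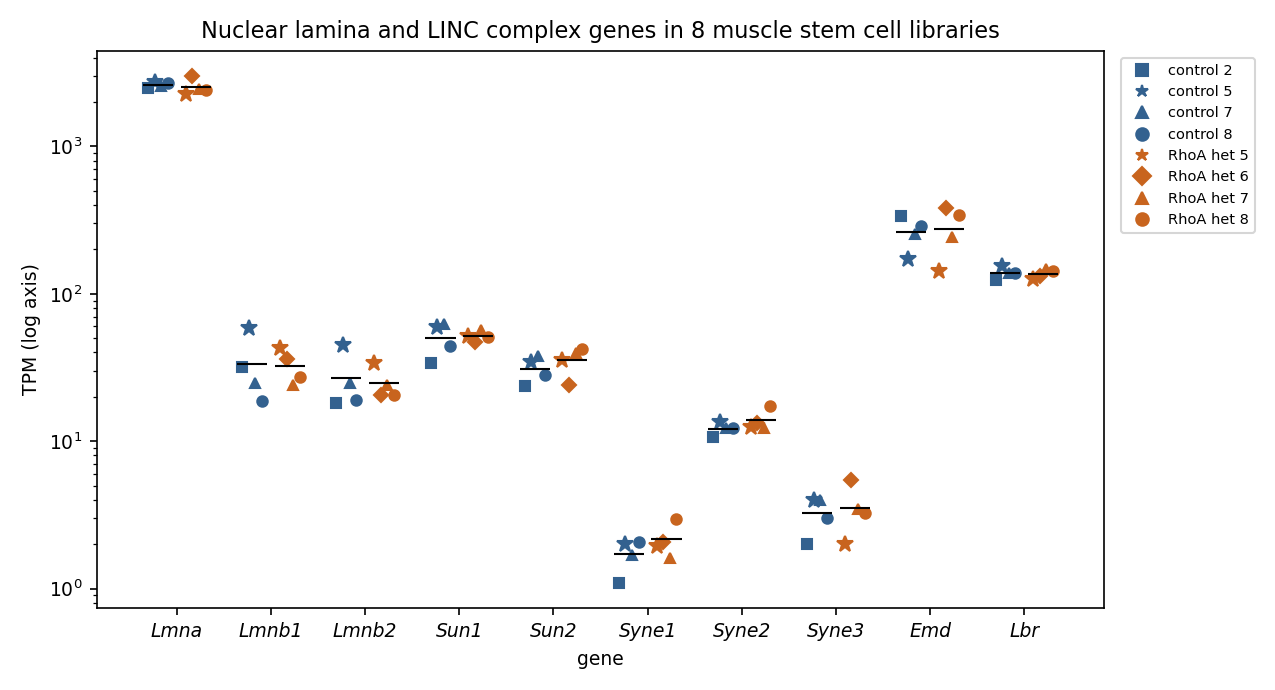
Level of each gene in TPM (log axis) in 4 control and 4 RhoA het libraries; points are libraries, marked by replicate number, and black lines are group means. Lmna lies near 2577 TPM and no nesprin gene above 17.4 TPM, and control and RhoA het points overlap for every gene.

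The 10 genes covered a wide range of levels. Lmna (ENSMUSG00000028063.16; mm39 chromosome 3, 88387454 to 88417263, minus strand) was at 2498, 2756, 2555 and 2682 TPM in control and at 2272, 3002, 2451 and 2401 TPM in RhoA het. This placed it between rank 41 and rank 63 of all genes by TPM in each library, and it held between 78.8% and 83.5% of the summed TPM of the 10 genes. Emd followed with a mean of 269.7 TPM over the 8 libraries and Lbr with 137.9 TPM. Sun1 (50.9 TPM), Sun2 (33.2 TPM), Lmnb1 (33.0 TPM) and Lmnb2 (25.8 TPM) formed a middle tier, and Syne2 (13.02 TPM), Syne3 (3.39 TPM) and Syne1 (1.93 TPM) were lowest. The order of neighbours held in 8 of 8 libraries except among Sun2, Lmnb1 and Lmnb2. Sun2 was above Lmnb1 in 4 of 8 libraries, and Lmnb1 above Lmnb2 in 5 of 8, so neither of these neighbouring pairs differed beyond its spread. The TPM of the nesprin genes divides by the summed exon length of all isoforms (40491 bases for Syne1 and 26726 bases for Syne2), and a short isoform counts for less on that scale.

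Lmna makes lamins A and C by alternative splicing, which counts per gene do not separate. Its mean was 2623 ± 118 TPM in control and 2532 ± 323 TPM in RhoA het (SD, n = 4 each). The log2 fold change on the scale of counts was -0.13 (SE 0.18, 95% interval -0.53 to 0.27, adjusted p of 1 in edgeR). The highest library, RhoA het replicate 6, and the lowest, RhoA het replicate 5, were both RhoA het, so the spread within that group was wider than the difference between the means. Lmna was lower in RhoA het in 3 of 3 pairs of libraries with the same replicate number, by log2 differences of -0.24, -0.06 and -0.28 for numbers 5, 7 and 8. Such agreement was not particular to Lmna, as Lmnb2 and Syne3 were also lower in 3 of 3 pairs and Sun2 in 0 of 3. With 3 pairs an exact sign-flip test cannot give a p under 0.25, and the share over all genes was not counted. A block on the number over the 3 pairs gave Lmna a log2 fold change of -0.22 (SE 0.13, 95% interval -0.51 to 0.078, adjusted p of 0.932 in edgeR). The pairs leave out the male libraries, control replicate 2 and RhoA het replicate 6. These held the highest Lmna values in CPM (counts relative to the scaled library size), 5646 and 5700, against at most 5127 elsewhere. The block fit thus differs from the fit over 8 libraries in sex as well as in pairing. The difference was thus not detectable in either fit. In the block fit, 0 of the 10 genes were called, beside 0.0127% of all genes, and 0 of 10 had an unadjusted p under 0.05, beside 5.26% of all genes (edgeR).

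The B-type lamin genes varied more. Lmnb1 (ENSMUSG00000024590.9; mm39 chromosome 18, 56840885 to 56886496, plus strand) was at 31.6, 59.0, 24.9 and 18.6 TPM in control and at 42.7, 36.4, 24.0 and 27.1 TPM in RhoA het. Lmnb2 (ENSMUSG00000062075.14; mm39 chromosome 10, 80737037 to 80754079, minus strand) was at 18.1, 45.2, 24.9 and 19.1 TPM in control and at 34.1, 20.6, 24.1 and 20.7 TPM in RhoA het. In both groups the highest value of each gene was in replicate 5. The mean TPM of the libraries numbered 5 was 1.88 times that of the others for Lmnb1 and 1.86 times for Lmnb2, while for Lmna it was 0.968 times. In log2 CPM (counts relative to the scaled library size), Lmna stood there at -0.057 in control and -0.29 in RhoA het from its mean over the 8 libraries. Both B-type genes had the libraries numbered 5 as their highest pair on that scale, as did 11.3% of all genes tested. For Lmnb1 the margin was small, at 5.189 in RhoA het replicate 5 against 5.185 in control replicate 2. The sums of cell cycle and fibro-adipogenic genes were also highest in the libraries numbered 5, as given above, and their part in the lamin levels was not tested. Between the groups, the log2 fold change was -0.099 for Lmnb1 (SE 0.31, 95% interval -0.80 to 0.61) and -0.16 for Lmnb2 (SE 0.24, 95% interval -0.69 to 0.38), with an adjusted p of 1 in edgeR for both. Without control replicate 5 the values were 0.19 and 0.10, and without RhoA het replicate 7 the value of Lmnb1 was 0.020. The direction of these small differences over 8 libraries thus rested on single libraries. In the same-numbered pairs, Lmnb2 was lower in RhoA het in 3 of 3, by -0.37, -0.049 and -0.0023, and Lmnb1 in 2 of 3. The block gave Lmnb2 a log2 fold change of -0.17 (adjusted p of 0.933 in edgeR).

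**Figure D2:**
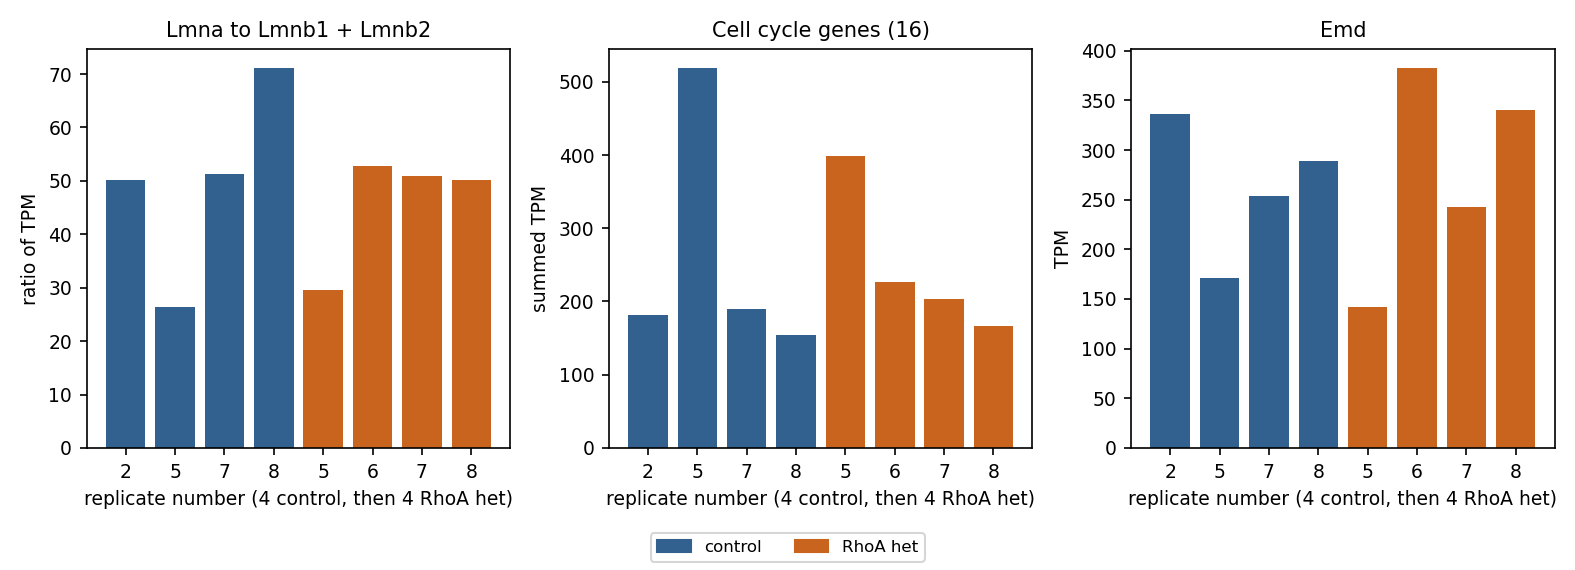
Ratio of Lmna to Lmnb1 plus Lmnb2 in TPM (left), summed TPM of 16 cell cycle genes (middle) and Emd in TPM (right) in each library, as bars from 0. The libraries numbered 5 have the lowest ratios, 26.5 in control and 29.6 in RhoA het, the highest cell cycle sums and the lowest Emd levels in both groups.

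The balance of A-type to B-type lamins, which differs between soft and stiff tissues, was compared as the ratio of Lmna to Lmnb1 plus Lmnb2 in TPM. It was 50.2, 26.5, 51.3 and 71.1 in control and 29.6, 52.7, 51.0 and 50.2 in RhoA het. Lmna RNA thus exceeded B-type lamin RNA by at least 26.5-fold in every library, and the libraries numbered 5 held the lowest ratio of each group. The means were 49.8 ± 18.3 and 45.9 ± 10.9 (SD, n = 4 each). The log2 ratio differed by -0.069 between the groups (two-sided exact permutation p of 0.914, and 0.914 after adjustment over 6 ratios). Its direction turned without control replicate 8 (0.13) or without RhoA het replicate 5 (0.13). Within the B-type lamins, the ratio of Lmnb1 to Lmnb2 lay between 0.977 and 1.77 and had its highest values, 1.74 and 1.77, in the 2 male libraries. The Lmnb1 to Lmnb2 ratio averaged 1.26 ± 0.358 in control and 1.33 ± 0.319 in RhoA het (SD, n = 4 each; exact permutation p of 0.686, adjusted 0.914). The ratio of Lmna to Lbr was the steadiest in control, at 18.9 ± 0.983, and was 18.6 ± 2.83 in RhoA het (exact permutation p of 0.800, adjusted 0.914).

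Sun1 and Sun2 encode the SUN proteins of somatic cells. Sun1 (ENSMUSG00000036817.15; mm39 chromosome 5, 139186392 to 139235595, plus strand) was at 33.9, 59.3, 62.2 and 44.3 TPM in control and at 52.0, 47.0, 57.1 and 51.2 TPM in RhoA het. The RhoA het values lay inside the range of the control values, and the log2 fold change came to -0.00073 (SE 0.13, 95% interval -0.30 to 0.29, adjusted p of 1 in edgeR). Sun2 (ENSMUSG00000042524.15; mm39 chromosome 15, 79608271 to 79626737, minus strand) was at 23.7, 34.6, 37.7 and 28.2 TPM in control and at 35.7, 23.9, 39.8 and 42.1 TPM in RhoA het. Its lowest values were in the 2 male libraries, and its log2 fold change came to 0.11 (SE 0.16, 95% interval -0.25 to 0.48, adjusted p of 1 in edgeR). Sun2 was higher in RhoA het in each of the 3 same-numbered pairs, by 0.08, 0.08 and 0.46 on the log2 scale, and the block gave 0.18 (95% interval -0.090 to 0.46, adjusted p of 0.932 in edgeR). Sun1 RNA exceeded Sun2 RNA in 8 of 8 libraries. The ratio of Sun2 to Sun1 was 0.632 ± 0.0505 in control and 0.678 ± 0.130 in RhoA het (SD, n = 4 each; exact permutation p of 0.686, adjusted 0.914). Over the libraries numbered 5, 7 and 8 alone, the ratio was higher in RhoA het in 3 of 3 pairs and the groups did not overlap. The log2 ratio there differed by 0.27, with a two-sided exact permutation p of 0.10 without pairing (adjusted 0.60 over 6 ratios) and an exact sign-flip p of 0.25 over the pairs (adjusted 0.75), each the smallest unadjusted p its test can give.

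Nesprins bind the cytoskeleton on the outer face of the nucleus. The giant forms of nesprin-1 and nesprin-2, from Syne1 and Syne2, bind actin, and nesprin-3, from Syne3, binds plectin and through it intermediate filaments. Syne1 (ENSMUSG00000096054.4; mm39 chromosome 10, 4970917 to 5501482, minus strand) was at 1.10, 2.01, 1.68 and 2.07 TPM in control and at 1.94, 2.08, 1.62 and 2.98 TPM in RhoA het. The log2 fold change came to 0.27 (SE 0.22, 95% interval -0.21 to 0.76). It was 0.080 without RhoA het replicate 8 and 0.094 with the replicate block, where 2 of 3 pairs were lower in RhoA het. The lowest library was control replicate 2 and the highest RhoA het replicate 8, and the other 6 overlapped. Syne2 (ENSMUSG00000063450.15; mm39 chromosome 12, 75864908 to 76157700, plus strand) was at 10.7, 13.5, 12.4 and 12.2 TPM in control and at 12.4, 13.4, 12.2 and 17.4 TPM in RhoA het. RhoA het replicate 8 again stood highest, and the log2 fold change of 0.11 (SE 0.14, 95% interval -0.20 to 0.42) was -0.014 without it. Syne1 and Syne2 both had an adjusted p of 1 in edgeR. RhoA het replicate 8 also had the highest mural list sum (2233 TPM, against 497 to 1286 TPM elsewhere), whose part in these levels was not tested.

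Syne3 (ENSMUSG00000054150.13; mm39 chromosome 12, 104896192 to 104976068, minus strand) had the fewest reads of the 10 genes, between 68 and 207 fragments per library. It was at 1.99, 4.01, 3.97 and 3.00 TPM in control and at 2.00, 5.45, 3.44 and 3.23 TPM in RhoA het. The highest library was RhoA het replicate 6, the one with the highest sums of endothelial and erythroid markers, whose part in the level was not tested. Over the 8 libraries the log2 fold change came to 0.099 (SE 0.32, 95% interval -0.63 to 0.83, adjusted p of 1 in edgeR). It was -0.24 without RhoA het replicate 6 and -0.015 without control replicate 2. With the replicate block over the 3 pairs, which leaves out both of these libraries, it was -0.41 (SE 0.26, 95% interval -0.98 to 0.16, adjusted p of 0.932 in edgeR). The pair numbered 5 carried most of that value, with a log2 difference of -0.94 against -0.20 and -0.01 in the pairs numbered 7 and 8.

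The SUN genes together summed to between 57.6 and 99.9 TPM and the nesprin genes to between 13.7 and 23.6 TPM. The ratio of these sums was 4.69 ± 0.646 in control and 4.57 ± 1.07 in RhoA het (SD, n = 4 each; exact permutation p of 0.800, adjusted 0.914). It was lowest in RhoA het replicate 6 at 3.39. Its log2 difference between the groups of -0.056 turned to 0.077 without RhoA het replicate 6, to 0.028 without control replicate 7 and to 0.0043 without RhoA het replicate 8. The ratio of Syne1 to Syne2 was 0.139 ± 0.0276 in control and 0.154 ± 0.0161 in RhoA het (exact permutation p of 0.400, adjusted 0.914). Over all 8 libraries, none of the 6 ratios separated the groups beyond the spread between libraries. With 70 assignments the smallest p the test can give is 0.0286.

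**Figure D3:**
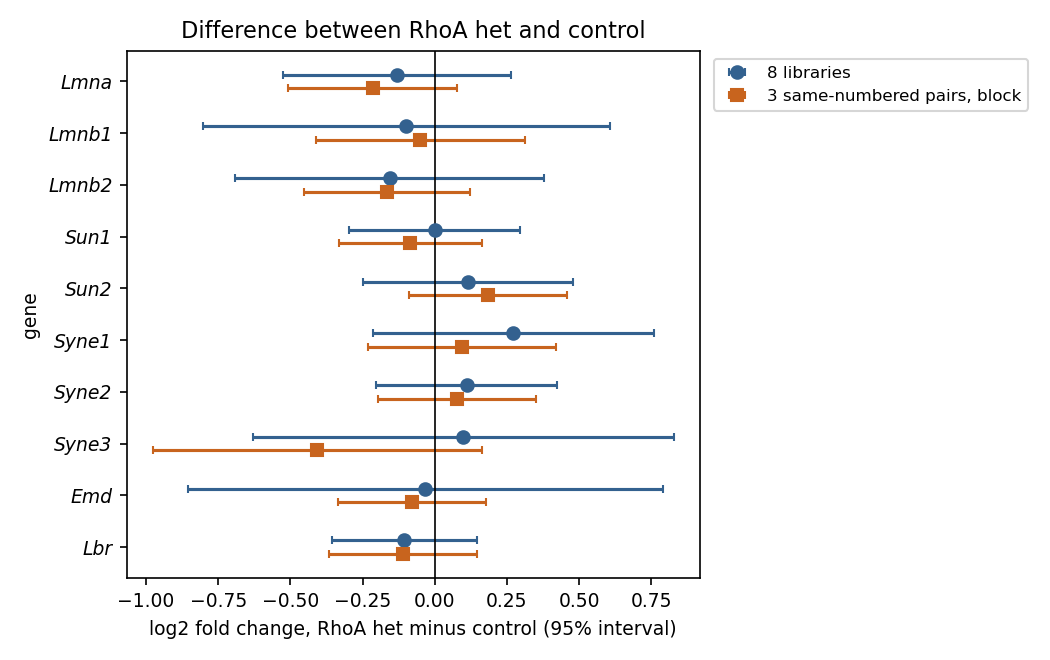
Log2 fold change of RhoA het against control with its 95% interval, over all 8 libraries (circles) and over the 3 same-numbered pairs with the number as a block (squares). All 20 intervals include 0, and for Emd the interval is -0.86 to 0.79 over 8 libraries and -0.33 to 0.18 with the block.

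Emd encodes emerin, an inner membrane protein with a LEM domain that binds the chromatin protein BAF. Emd (ENSMUSG00000001964.15; mm39 chromosome X, 73298293 to 73305154, plus strand) was at 336.6, 171.2, 253.2 and 288.8 TPM in control and at 142.2, 382.3, 243.1 and 340.3 TPM in RhoA het. The libraries numbered 5 were lowest in both groups, at 0.510 times the mean TPM of the others, a pattern that 10.6% of all genes tested shared in log2 CPM. On that scale the male libraries were highest, at 8.36 in control replicate 2 and 8.29 in RhoA het replicate 6, against at most 8.01 elsewhere. The part of sex in the Emd level was not tested. Emd had the widest spread of the 10 genes, with an SD of 0.61 in log2 CPM over the 8 libraries, wider than in 92.2% of the 9784 genes with a mean of at least 5 CPM. Same-numbered libraries were close, with log2 differences between RhoA het and control of -0.23, -0.06 and 0.12 for numbers 5, 7 and 8. The log2 fold change was -0.033 over 8 libraries (SE 0.37) and -0.079 with the block (SE 0.12), with adjusted p of 1 and 0.952 in edgeR. The direction of the difference over 8 libraries turned without control replicate 2 (0.22), control replicate 8 (0.0064), RhoA het replicate 5 (0.20) or RhoA het replicate 7 (0.023).

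Lbr encodes the lamin B receptor, which binds B-type lamins and heterochromatin and is also a sterol reductase. Lbr (ENSMUSG00000004880.12; mm39 chromosome 1, 181642900 to 181670611, minus strand) was at 124.4, 154.9, 137.9 and 139.4 TPM in control and at 126.6, 131.8, 146.2 and 141.8 TPM in RhoA het. All 8 libraries lay within a 1.25-fold range, the narrowest of the 10 genes. Its SD in log2 CPM was 0.12, below that of all but 4.79% of the genes with at least 5 CPM, whose median was 0.26. The log2 fold change came to -0.10 (SE 0.11, 95% interval -0.36 to 0.15, adjusted p of 1 in edgeR).

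**Figure D4:**
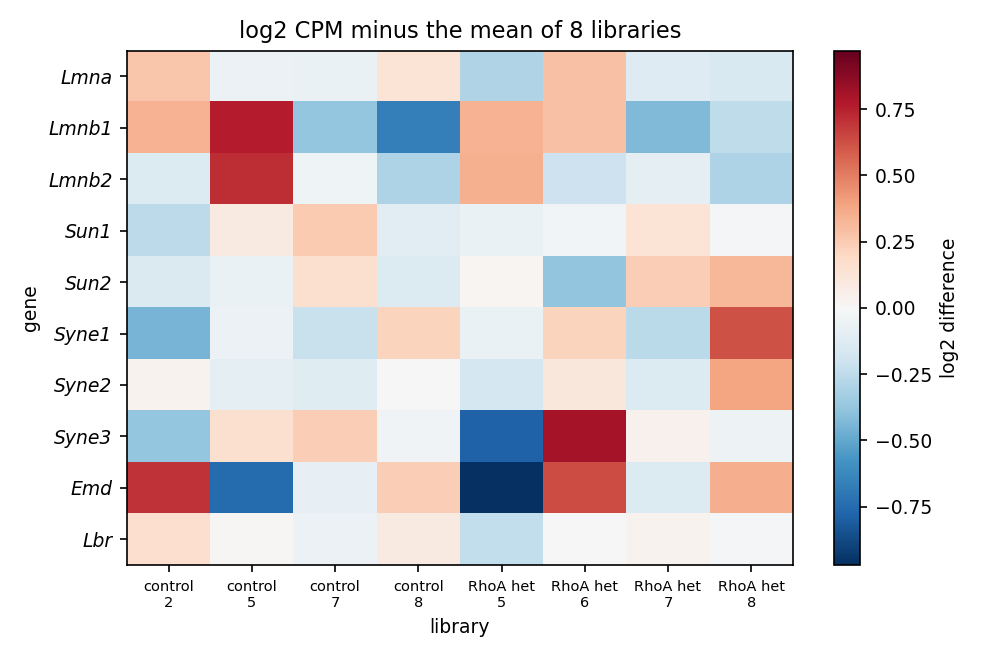
Log2 CPM of each gene in each library minus its mean over the 8 libraries (rows are genes, columns are libraries, color is the log2 difference). Lmnb1 and Lmnb2 are highest and Emd lowest in the libraries numbered 5, and Syne3 is highest in RhoA het replicate 6 at 0.81. For Lmnb1, RhoA het replicate 5 (0.339) is nearly level with control replicate 2 (0.335).

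The genes did not vary as 1 block across the 8 libraries. Pearson's r of log2 CPM between members ran from -0.83 for Lmnb2 and Emd to 0.79 for Lmna and Emd. Lmnb1 and Lmnb2 had an r of 0.72, and Syne1 and Syne2 one of 0.74. These values rest on 8 libraries that share depth and composition, and they are given as a description. Among 9743 named genes with at least 5 CPM, the profiles most like that of Lmna were those of Camkmt (r of 0.98) and Serpinb6a (r of 0.96), and those most like Lmnb2 were Msantd3 (r of 0.99) and Mcm3 (r of 0.98), a subunit of the replicative helicase. For Lmnb1 they were Il3ra (0.95) and Adgra2 (0.94), for Sun1 Cdc42bpg and Eif2d (0.97 each), and for Sun2 Mms19 (0.95) and Lins1 (0.93). For Syne1 they were Btbd3 (0.97) and Mical2 (0.96), for Syne2 Car13 (0.98) and Colec12 (0.97), and for Syne3 Atg9a (0.95) and Rreb1 (0.94). For Emd they were Lmbrd1 and Axl (0.99 each), and for Lbr Arhgdia (0.97) and Gpat4 (0.96). These r are the largest of a search over 9743 genes in 8 libraries, so high values come from the search itself for every member.

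Other genes of the nuclear envelope, a list of 38 that process lamins, anchor chromatin, bind nesprins or build the pore basket, was examined in the same fits. Of these, 32 passed the filter on low counts, and 0 of 32 were called in edgeR or in DESeq2, with 0 at an unadjusted p under 0.05 in either. Their median log2 fold change was -0.031, with 14 above 0 and 18 below, against -0.00071 over all genes tested. The 6 that did not pass were Nrm, Syne4, Irag2, Kash5, Sun3 and Sun5, of which Nrm was the highest at a mean of 0.821 TPM. Sun3, Sun5 and Kash5, which serve germ cells, averaged at most 0.0595 TPM. The most abundant were Banf1, which encodes BAF, at 210.1 ± 23.0 TPM in control and 209.0 ± 35.1 TPM in RhoA het (SD, n = 4 each), Tor1aip2 at 166.6 ± 33.4 and 162.6 ± 31.7 TPM, and Kif5b, a kinesin that binds nesprins, at 109.2 ± 26.7 and 124.7 ± 19.9 TPM. The smallest p belonged to Tor1a, an ATPase of the perinuclear space (log2 fold change -0.22, unadjusted p of 0.116 and adjusted p of 1 in edgeR), and to Nup210, a pore membrane protein (log2 fold change -0.51, unadjusted p of 0.185 and adjusted p of 1 in edgeR). With the replicate block, Nup210 had a log2 fold change of -0.65 and an adjusted p of 0.458 in edgeR. In that block fit 34 of the list passed the filter and 0 of 34 were called, while 3 of 34 had an unadjusted p under 0.05, all lower in RhoA het, beside 5.26% of all genes. These were Nup210 and, named after their values were seen, Tmem201, an inner nuclear membrane protein, and Fntb, a subunit of the enzyme that farnesylates lamins. The same 6 libraries without the block gave 2 of 34, both lower, beside 1.77% of all genes. The libraries numbered 5 were the highest pair in log2 CPM for 7 of the 32 genes, beside 11.3% of all genes tested. Tmpo, which encodes the LEM protein LAP2 and was singled out after its values were seen, was at 15.8 and 12.4 TPM in control and RhoA het replicate 5 and between 4.81 and 6.63 TPM elsewhere.

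The sequence upstream of the genes was examined for elements tied to RhoA signalling and to the cell cycle. RefSeq starts (build GRCm38.p6, used here for sequence alone) were matched for Lmna, Lmnb2, Sun1, Sun2, Syne1, Syne2, Syne3, Emd and Lbr, 9 of the 10 genes, and the 250 bases before the start farthest upstream were searched on both strands. Those of Lmna, the most abundant gene, and of Lmnb2 and Emd, whose profiles ran most opposite, are shown 5′ to 3′ on the strand of the gene, with matches in capitals. They lie at chr3:88503353-88503602 (minus strand), chr10:80918246-80918495 (minus strand) and chrX:74254437-74254686 (plus strand).
Lmna: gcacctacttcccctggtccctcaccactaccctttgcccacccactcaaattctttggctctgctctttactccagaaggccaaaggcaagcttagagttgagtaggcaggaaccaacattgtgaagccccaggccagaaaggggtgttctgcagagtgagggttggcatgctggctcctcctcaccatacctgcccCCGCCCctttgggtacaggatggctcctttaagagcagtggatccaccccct
Lmnb2: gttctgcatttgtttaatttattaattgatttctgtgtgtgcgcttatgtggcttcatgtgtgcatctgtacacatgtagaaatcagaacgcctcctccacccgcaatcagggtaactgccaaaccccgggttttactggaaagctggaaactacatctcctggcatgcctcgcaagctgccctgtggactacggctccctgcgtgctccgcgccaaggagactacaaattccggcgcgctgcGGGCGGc
Emd: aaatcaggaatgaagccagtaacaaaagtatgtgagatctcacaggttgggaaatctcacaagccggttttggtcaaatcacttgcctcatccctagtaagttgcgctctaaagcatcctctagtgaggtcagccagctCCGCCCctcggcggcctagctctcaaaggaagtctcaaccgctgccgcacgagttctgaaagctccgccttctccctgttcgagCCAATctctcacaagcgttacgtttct

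The capitals mark the GC box GGGCGG or its reverse complement in all 3 windows, and CCAAT in that of Emd. The GC box was found in 8 of the 9 windows (all but Syne3) and in 33% of 27025 promoter windows of the same length, and CCAAT in 4 of 9 (Emd, Lbr, Sun1 and Sun2) and in 34.5% of all. TTTGAA, a core of the cell cycle homology region, was in 2 of 9 (Lbr and Sun2) and in 16.3% of all. TTTNNCGC, a loose form of the E2F site, and the CArG box, the element bound by SRF, a factor that the RhoA pathway feeds, were in 0 of 9 and in 4.4% and 1.41% of all. Matches of different motifs did not overlap in the windows shown. These are letter matches in 1 window per gene, and nothing about binding follows from their presence or absence.

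Some of the genes share exon bases with other annotated genes. Among the 10 genes, exons of Sun1, Sun2, Syne2, Emd and Lbr overlapped another annotated gene, over between 0.037% of their exon bases for Syne2 and 13.6% for Emd. Those other genes held at most 24 fragments in any library. The counts do not use strand, so a read in such an overlap cannot be placed, and the number of shared reads was not measured.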

How the data were processed

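The authors deposited counts per gene and TPM per gene for 8 libraries made with a low-input template-switching kit. Per the file headers, fragments of STAR alignments were counted with featureCounts 1.6.4 (paired-end, exons summed by gene, GENCODE mouse release 34, mm39), with no strand option. The deposited TPM equalled counts per exon length scaled per library (largest relative difference 1.5e-14). The counting command named 10 alignments; 8 libraries are used here. Symbols came from GENCODE mouse release 21 by identifier (51884 of 57180 genes).

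Counts were filtered (filterByExpr), scaled by TMM and tested with edgeR 4.0.16 (quasi-likelihood, R 4.3.3, Benjamini-Hochberg); limma 3.58.1 and DESeq2 1.42.0 served alternatives. The edgeR test was tested on simulated data. log2 CPM used a prior count of 2. Ratios of TPM were compared by exact permutation. Named genes were all 10 members; of related genes, the 3 most abundant and the 2 with the smallest p; and the 2 most alike per member (Pearson's r). The members and lists were chosen with earlier results of these data known. The pairing comes from the replicate numbers 5, 7 and 8, which occur in both groups. Same-numbered libraries deviated together (r of 0.544, 0.231 and 0.488 for numbers 5, 7 and 8). Between unlike numbers r averaged -0.096 and was at most 0.122.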

Additional observations from a re-analysis of the deposited data

Results flagged for a closer look

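In RhoA het, the ratio of Lmna to Lmnb1 plus Lmnb2 was 29.6 in replicate 5 and at least 50.2 in the other 3 libraries. Replicate 5 stood apart from the rest by Dixon's ratio of 0.893, past its 95% critical value for 4 libraries. This was 1 of 32 such tests over the 10 genes and 6 ratios in both groups, and chance flags about 1 in 20. Control replicate 5 held the lowest ratio of its group as well, at 26.5.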

How the results depend on the processing

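No fold change of the 10 genes and no ratio passed an adjusted p of 0.05 under any alternative run (lowest adjusted p 0.854 for genes and 0.343 for ratios), and the count of called genes stayed at 0 for the members and the related genes. Over all genes it was 0 except under the replicate block, where 2 genes were called; the block changed no other call. Of 100 values for members under alternatives other than leaving out 1 library, 12 changed sign. With limma on log2(TPM + 1) and log2(TPM + 0.1) these were Lmnb1 (0.051 and 0.055), Sun1 (0.090 and 0.092) and Emd (0.024 and 0.024). With total counts without TMM they were Sun1 (0.029) and Emd (0.034). With both libraries numbered 5 left out, an alternative chosen after seeing the data, they were Lmnb1 (0.061) and Sun1 (0.032). For Syne3 the replicate block gave -0.41 and the same 6 libraries with no block -0.38. The SUN to nesprin log2 ratio became 0.027 in these 6 libraries, with the block and without it. The cause was not tested.

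Leaving out each library in turn gave ranges of -0.27 to -0.060 for Lmna, -0.29 to 0.19 for Lmnb1, -0.31 to 0.10 for Lmnb2, -0.081 to 0.091 for Sun1, 0.020 to 0.24 for Sun2, 0.080 to 0.39 for Syne1, -0.014 to 0.18 for Syne2, -0.24 to 0.31 for Syne3, -0.27 to 0.22 for Emd and -0.14 to -0.049 for Lbr. For the log2 ratios they were -0.34 to 0.13 (Lmna to B-type), -0.050 to 0.27 (Lmnb1 to Lmnb2), -0.015 to 0.22 (Sun2 to Sun1), 0.023 to 0.26 (Syne1 to Syne2), -0.16 to 0.077 (SUN to nesprin) and -0.13 to 0.013 (Lmna to Lbr). Syne3, at 68 to 207 fragments, is limited by depth as well as by spread; the other genes had at least 326.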
